A study of Mus musculus with 51 samples.

Results

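IFN-γ was added to cultured Myc-CaP cells, a mouse prostate cancer line, that carried no change in Uba1, and the response was read by bulk RNA-seq. The 8 libraries were chosen by their labels from the 51 of the series, and they come from 2 experiments. In the parental experiment, 2 libraries labelled Control (unmodified cells) stood against 2 labelled IFN-γ. In the NC experiment, 2 libraries labelled PBS stood against 2 labelled IFN-γ, all from cells with a nontargeting sgRNA. All 8 libraries carry the genotype label WT, the tissue label prostate tumor and the cell type label Epithelial. The study's methods describe its sgRNA lines as transfected with a lentiCRISPR plasmid, selected with puromycin and expanded from single cells, so that the NC cells may represent a clone. Stimulated Myc-CaP cultures were described as given 1 ng/mL IFN-γ for 18 hours, whereas the labels of these libraries give neither dose nor time. No label says that replicates 1 and 2 came from separate cultures, so that p-values measure the spread between these libraries, which may be technical.

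IFN-γ is a cytokine of T and NK cells. It binds the receptor chains encoded by Ifngr1 and Ifngr2, whose kinases JAK1 and JAK2 start a signal that acts on GAS elements in promoters. One of the genes raised is Irf1, whose product binds ISRE elements with related factors and sustains genes for antigen presentation and for defence against intracellular microbes.

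Total expected counts lay between 14121246 and 15728885 in the parental libraries and between 26768564 and 38032395 in the NC libraries. Of 40077 genes in the table, 14637 passed the filter on low counts and were tested. A gene could pass it through the stimulated libraries alone. Foxa1, a luminal prostate factor, lay at 265 to 309 CPM (each library's counts brought to one size with TMM factors). Of the T and NK cell markers looked for, 3 passed the filter, and the summed level of that list was 6.0 to 8.14 CPM without IFN-γ and 2.42 to 4.44 CPM with it, and 9 of its members were at 0 in all 8 libraries. The libraries come from a cultured cancer cell line labelled Epithelial, so that these low levels do not measure T or NK cells. The replicates differed by more than counting error, with chi-square values divided by their degrees of freedom between 1.81 and 2.25 in 3 groups and at 16.8 in the unstimulated NC pair. Between the unstimulated groups, 4921 genes (33.6%) differed by edgeR's test, 2359 higher (16.1%) and 2562 lower (17.5%) in NC than in parental cells, and experiment, line and depth cannot be told apart there.

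Over both experiments, the clearest change was a rise of interferon-inducible genes: GTPases that attack the vacuoles of intracellular microbes, subunits of the immunoproteasome, the TAP peptide transporter, and the factor Irf1. In the comparison of 4 libraries with 4, with experiment as a block, 1953 of 14637 genes (13.3%) were called, 1382 higher (9.44%) and 571 lower (3.9%), by edgeR's quasi-likelihood test at a Benjamini-Hochberg adjusted p under 0.05. Of the 1382, 95.9% rose by less than 1.5-fold. At least 2-fold changes were called for 36 higher (0.246%) and 42 lower (0.287%) genes. Of the 36, 22 were called in both experiments, 23 had a mean log2 CPM under 1, and in 33 the libraries did not overlap within either experiment. Over all genes tested, the stimulated pair lay wholly above the unstimulated one for 32.1% in parental and 29.5% in NC cells, and wholly below for 30.2% and 20.3%. Over all 4 and 4 libraries, 5.92% lay wholly above and 4.37% wholly below. The 42 lower genes all had a mean log2 CPM under 1. The libraries did not overlap within either experiment in 34 of them, 10 were called in parental cells only, 2 in NC cells only and 0 in both. The count of 1953 calls depended on single libraries, left out here and later one at a time. It was 639 and 559 without parental unstimulated replicate 1 and 2, 560 and 545 without parental IFN-γ replicate 1 and 2, and 820 without NC IFN-γ replicate 1. Without replicate 1 or 2 of the unstimulated NC pair, which differed most between its libraries, it was 2550 and 2468.

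The small changes also depended on the scale. On log2(TPM + 1) the median of all genes moved to -0.158 in parental cells, against 0.0016 in the main fit, and 155 genes were higher and 2450 lower there, against 1563 and 1122. In the 4 against 4 comparison, that scale gave 19 higher and 60 lower genes, and in NC cells 5 higher and 0 lower.

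The immunity-related GTPases, which bind to and disrupt the membranes around microbes, rose steeply. Of 12 genes listed, 10 were tested, 8 rose and 0 fell. Members at 0 without IFN-γ passed the filter on low counts only through stimulated libraries, so that this count is partly set by the filter. For this and every other list, the share of all genes called higher in the 4 against 4 comparison was 9.44%. With genes at 0 without IFN-γ set at their lower bound, the median log2 fold change of the 10 was 3.6 in parental and 2.33 in NC cells, against 0.0016 and 0.0216 over all genes tested. Igtp (ENSMUSG00000078853.8, chr11:58199556-58207591 on GRCm38) was at 0.523 and 0 CPM in unstimulated and 33.3 and 33.1 CPM in stimulated parental cells. In NC cells it went from 0.0371 and 0.0657 to 2.45 and 2.70 CPM. The stimulated libraries lay above the unstimulated ones in both experiments, and Igtp rose by 6.67 ± 0.28 (log2 fold change ± SE, n = 4 per group, adjusted p = 2.3e-09, edgeR). Here and below, the SE is the absolute log2 fold change divided by the square root of the test's F value. This SE may be too small for genes near 0 without IFN-γ.

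Irgm1, a regulator of the other members that cells also make at rest, was at 19.8 and 19.4 CPM without and 67.1 and 64.5 CPM with IFN-γ in parental cells, and at 9.09 and 9.95 and then 20.5 and 21.2 CPM in NC cells. Its levels did not overlap in either experiment, and its mean rose 3.36-fold in parental and 2.19-fold in NC cells. Tgtp1 went from 2.29 and 1.33 to 23.3 and 23.7 CPM in parental and from 0.111 and 0.0657 to 3.07 and 2.76 CPM in NC cells. Tgtp2 and Iigp1 had 0 counts in all 4 unstimulated libraries. Against a floor of 3 counts per library, Tgtp2 was at least 30.5-fold higher with IFN-γ in parental and at least 8.39-fold higher in NC cells, and Iigp1 at least 30.9-fold and 6.86-fold. Irgm2 (log2 5.64 ± 0.21) and Ifi47 (3.92 ± 0.50) rose too, both called in each experiment. Gm12250 was called in parental cells (2.35 ± 0.51) and had a log2 fold change of 0.52 ± 0.50 in NC cells (adjusted p = 0.59), and its 4 against 4 call was lost without any of the 4 parental libraries or NC IFN-γ replicate 2 (adjusted p up to 0.16) by edgeR, and its parental call without any of the 4 parental libraries (adjusted p up to 0.0868). In parental cells DESeq2 called Irgm1 and gave no adjusted p to the other 7 of the 8, since its filter on the mean count left out genes under 196 counts there. All 7 had an unadjusted p under 0.05. Tgtp1 and Tgtp2, and Igtp and Irgm2, are neighbouring genes of similar sequence, so that how the estimated counts were shared between them is uncertain.

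Guanylate-binding proteins, GTPases that coat microbes, rose in all 3 of the tested members (11 in the table). Gbp2 and Gbp3 passed the filter on low counts only through stimulated libraries, so that this share is partly set by the filter. Gbp2 went from 0.131 and 0.0635 to 13 and 16.8 CPM in parental and from 0.0371 and 0 to 1.96 and 2.13 CPM in NC cells. Gbp3 went from 0 and 0.0635 to 3.53 and 3.94 and from 0 and 0.0328 to 0.717 and 0.355 CPM. Both were near 0 without IFN-γ and were called in both experiments, while Gbp7 was called in parental cells (log2 3.70 ± 0.44) and had an adjusted p of 0.051 in NC cells (edgeR). The NC call of Gbp3 was lost without either parental IFN-γ library or NC IFN-γ replicate 1 (adjusted p up to 0.24), and with DESeq2 (adjusted p = 0.0534). In parental cells DESeq2 gave no adjusted p to any of the 3, for the same reason. These paralogs are similar, and the split of counts between them is uncertain.

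**Figure D1:**
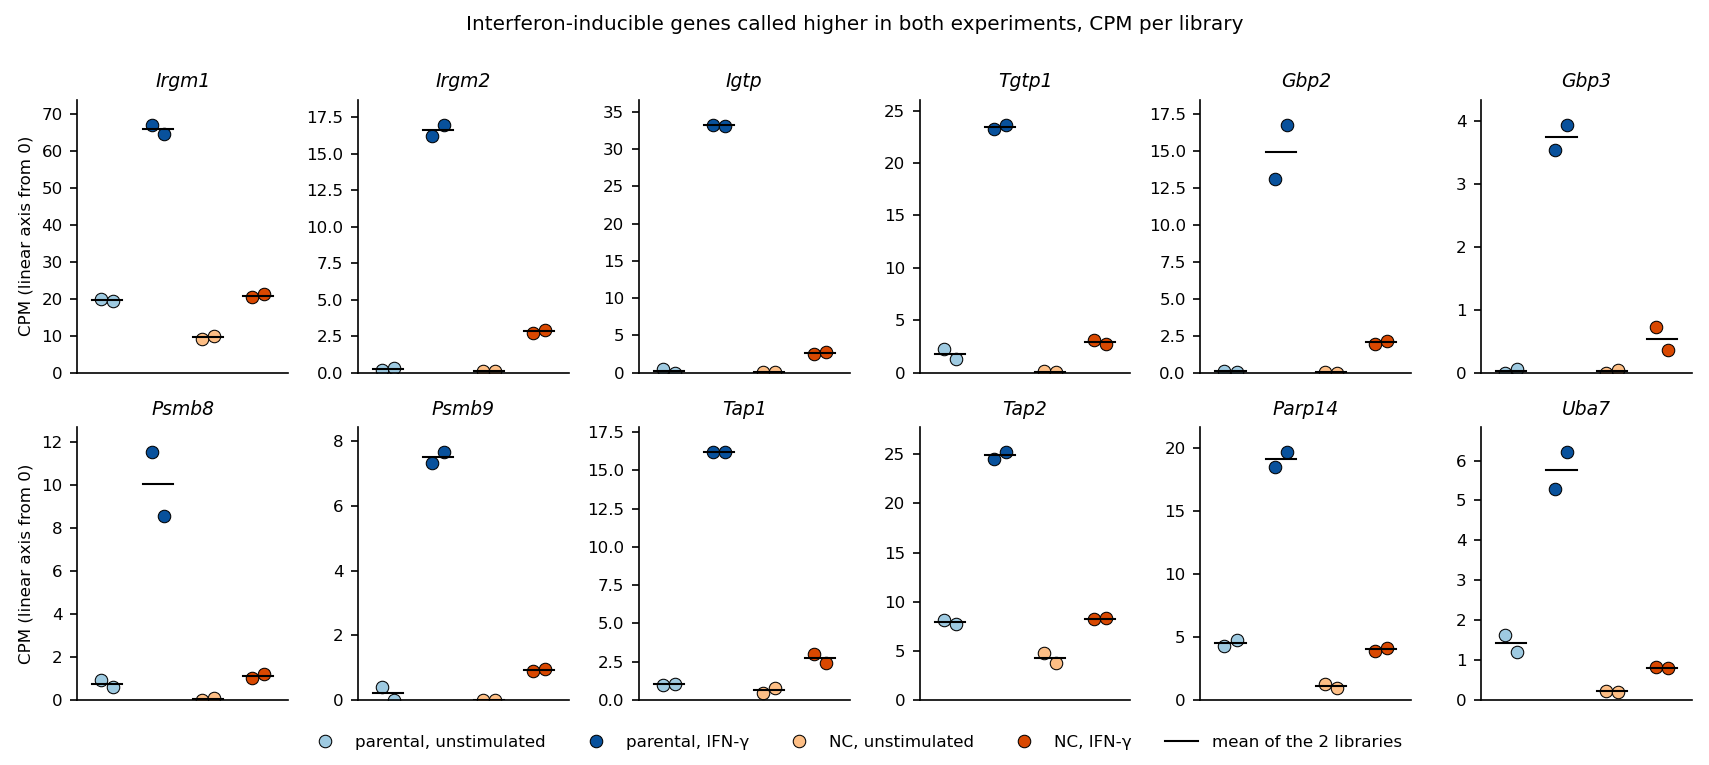
CPM in each of the 8 libraries (vertical axis, linear from 0, a scale per panel) for 12 interferon-inducible genes, with points for libraries coloured by group and a line at the mean of each pair. In every panel both stimulated libraries lie above both unstimulated ones within each experiment, and the stimulated parental pair lies highest, as for Irgm1 at 67.1 and 64.5 CPM.

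The promoters below are examples picked from the raised genes that held a match to at least 1 of the 2 elements of the pathway. Irf1 and Psmb8 hold a GAS match only, Gbp2 holds an ISRE match only, and the others hold both. The lines are RefSeq sequence upstream of the annotated start on GRCm38.p6, 5′ to 3′ along the gene's strand, with matches to the GAS core (TTCNNNGAA) or the ISRE core (GAAA, any 2 bases and GAAA, or on the other strand TTTC, any 2 bases and TTTC) in capitals. Irf1 is at chr11:53769764-53770013 (+), Gbp2 at chr3:142620413-142620662 (+), Gbp7 at chr3:142530220-142530299 (+), Igtp at chr11:58199501-58199550 (+), Irgm2 at chr11:58214892-58214941 (+), Tgtp1 at chr11:48992295-48992344 (−), Tgtp2 at chr11:49064254-49064303 (−), Gm12185 at chr11:48927229-48927278 (−) and Psmb8 at chr17:34198088-34198137 (+).
Irf1: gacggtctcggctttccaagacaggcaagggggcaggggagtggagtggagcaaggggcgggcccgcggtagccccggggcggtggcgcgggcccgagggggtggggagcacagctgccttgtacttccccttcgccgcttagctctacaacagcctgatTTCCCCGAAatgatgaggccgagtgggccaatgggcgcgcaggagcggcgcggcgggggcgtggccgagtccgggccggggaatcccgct
Gbp2: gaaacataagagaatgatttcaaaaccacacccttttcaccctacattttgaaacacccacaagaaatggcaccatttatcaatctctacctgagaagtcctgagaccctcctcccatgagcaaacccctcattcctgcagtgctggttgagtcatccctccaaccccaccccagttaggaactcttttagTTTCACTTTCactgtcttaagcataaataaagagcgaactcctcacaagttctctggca
Gbp7: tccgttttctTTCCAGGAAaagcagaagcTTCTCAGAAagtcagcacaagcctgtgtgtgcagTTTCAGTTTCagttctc
Igtp: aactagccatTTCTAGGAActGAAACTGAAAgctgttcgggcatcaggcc
Irgm2: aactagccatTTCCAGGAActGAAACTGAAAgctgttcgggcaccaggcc
Tgtp1: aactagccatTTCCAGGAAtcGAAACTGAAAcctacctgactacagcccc
Tgtp2: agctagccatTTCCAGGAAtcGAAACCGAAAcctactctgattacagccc
Gm12185: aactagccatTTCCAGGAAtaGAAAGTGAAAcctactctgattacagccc
Psmb8: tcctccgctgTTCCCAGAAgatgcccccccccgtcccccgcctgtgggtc

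In Igtp, Irgm2, Tgtp1, Tgtp2 and Gm12185 a GAS core is followed, after the same short gap, by an ISRE core. Windows from 250 bases before to 50 after the start were searched on both strands, and 10652 of 14616 tested genes with a unique symbol had a window. Of the genes raised at least 2-fold, 27 had a window, and 16 of them (59.3%) held either core, against 11.7% of all genes with a window. The 16 include paralogs, such as Gbp2, Gbp3 and Gbp7, and Igtp, Irgm2, Tgtp1 and Tgtp2. The printed stretches of the last 4 are nearly alike, so that these genes are not independent examples. A GAS core was found in 40.7% of the 27 (all genes 8.51%) and an ISRE core in 48.1% (all genes 3.75%). Of all 1103 genes called higher with a window, 12.4% held either core, close to the share over all genes. Of the genes lowered at least 2-fold, 19 had a window and 2 (10.5%) held either core. A match to these letters is a description and not a binding site, and Parp14, Tap2, Nlrc5 and Iigp1 had no window in the table used.

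**Figure D2:**
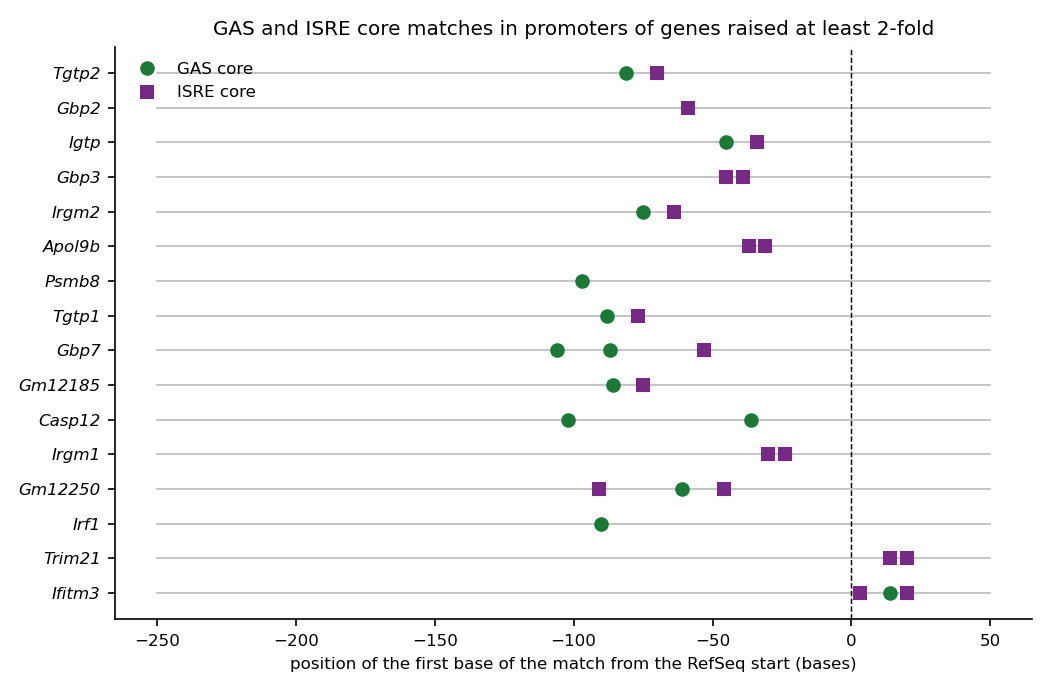
Position of each GAS core (circles) and ISRE core (squares) match, as bases from the RefSeq start (horizontal axis), in the first window of the 16 genes raised at least 2-fold that held one; grey lines span the searched window. Most matches lie in the 110 bases before the start, and those of Trim21 and Ifitm3 lie after it.

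Most tested genes that prepare and load peptides for MHC class I rose in the 4 against 4 comparison. Of the 21 genes listed for class I and loading, 10 were analysed here, and 6 rose and 0 fell (median log2 0.65). The listed genes without an entry under their symbol were class I heavy chains, such as H2-K1 and H2-D1, so that the count does not cover these. Nlrc5 passed the filter on low counts only through stimulated libraries, so that the count is partly set by the filter. In parental cells 7 were called higher and 1 lower, against 10.7% and 7.67% of all genes. In NC cells 4 were called higher and 0 lower, against 1.46% and 0.656%. Tap1, a subunit of the peptide transporter of the endoplasmic reticulum, went from 0.980 and 1.02 to 16.2 and 16.2 CPM in parental and from 0.445 and 0.788 to 3.0 and 2.40 CPM in NC cells. Tap2, its partner, went from 8.10 and 7.75 to 24.5 and 25.3 and from 4.71 and 3.71 to 8.22 and 8.30 CPM. Neither overlapped between stimulated and unstimulated libraries in either experiment.

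Tapbp, which bridges TAP and class I, rose by 1.36 ± 0.06 in parental and 0.84 ± 0.06 in NC cells (log2 ± SE, adjusted p = 1.4e-07 and 2.4e-05, edgeR, n = 2 per group). Erap1, which trims peptides, rose by 0.59 ± 0.07 and 0.47 ± 0.07, and its NC call was lost without either NC IFN-γ library (adjusted p up to 0.118). Nlrc5, the transactivator of class I genes, had 0 counts in both unstimulated parental libraries and was at least 7.56-fold higher with IFN-γ. In NC cells it was at 0 and 0.0328 CPM without and 0.0978 and 0.164 CPM with IFN-γ, which did not pass (adjusted p = 0.21, edgeR). B2m, the light chain, was at 103 and 104 CPM and then 117 and 119 CPM in parental cells and at 59 and 66.8 and then 60.6 and 60.9 CPM in NC cells. Its parental effect (log2 0.20 ± 0.06) was called, turned to -0.00054 on log2(TPM + 1), and was lost without any of the 4 parental libraries or either NC IFN-γ library (adjusted p up to 0.149) by edgeR.

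The immunoproteasome, which replaces the catalytic subunits of the constitutive proteasome and yields peptides suited to class I, rose in 5 of 6 tested members of its list, with a median of 1.0. Psmb9 passed the filter on low counts only through stimulated libraries, so that this count is partly set by the filter. Psmb8 went from 0.915 and 0.572 to 11.6 and 8.57 CPM in parental and from 0 and 0.0657 to 1.01 and 1.20 CPM in NC cells. Psmb9 went from 0.392 and 0 to 7.33 and 7.68 CPM in parental cells, and from 0 counts in both NC libraries to 0.880 and 0.956 CPM, at least 8.75-fold, a call lost without either NC IFN-γ library (adjusted p up to 0.0569). Psmb10 rose 3.24-fold and 1.76-fold. Of the 7 constitutive beta subunits, 3 rose, with a median of 0.19. On the log2(TPM + 1) scale the medians of the 2 lists were 0.861 and 0.0587. Psme1 and Psme2 encode the PA28 regulator, and Psme2 was called in both experiments (1.06 ± 0.07 and 0.54 ± 0.07), in NC cells not without NC IFN-γ replicate 2 (adjusted p up to 0.0528).

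Of the 11 receptor and JAK-STAT genes listed, Stat2 rose and Ifngr2 fell. Jak1 lay at 127 to 143 CPM, Jak2 at 118 to 139.9 CPM and Ifngr1 at 14.7 to 25.6 CPM over the 8 libraries, and none of the 3 was called in either experiment. Stat2, a subunit of ISGF3, went from 9.34 and 9.09 to 15.2 and 14.7 CPM in parental cells and was at 8.50 and 10.1 and then 11.6 and 11.1 CPM in NC cells. The call for Ifngr2 (log2 -0.35 ± 0.11) was lost without any of the 4 parental libraries, NC unstimulated replicate 2 or either NC IFN-γ library (adjusted p up to 0.123) by edgeR.

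Of 5 tested IRF factors, Irf1, Irf8 and Irf9 rose. Irf1 went from 26.5 and 25.1 to 75 and 80.4 CPM in parental and from 24.2 and 24.6 to 37.3 and 37.8 CPM in NC cells. Irf9, another subunit of ISGF3, was called in parental cells (1.06 ± 0.14) and was at 0.42 ± 0.12 in NC cells (adjusted p = 0.086, edgeR). Irf8 went from 3.46 and 3.30 to 7.90 and 9.01 CPM in parental cells and from 1.34 and 1.12 to 1.21 and 1.64 CPM in NC cells, and its 4 against 4 call was lost without any of the 4 parental libraries (adjusted p up to 0.0891) by edgeR.

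Of 14 tested feedback inhibitors 5 rose (median log2 0.12), against 9.44% of all genes. The housekeeping list had the same count, 5 of 14 (median 0.11). The 5 inhibitors that rose include Parp14, an ADP-ribosyltransferase, and Trim21, an antibody receptor and ubiquitin ligase. Parp14 rose 4.23-fold in parental and 3.72-fold in NC cells, from 4.25 and 4.77 CPM in the first and 1.23 and 0.920 CPM in the second. The NC call of Trim21 was lost without any of the 4 parental libraries, NC unstimulated replicate 2 or either NC IFN-γ library (adjusted p up to 0.386) by edgeR. Socs1, which inhibits JAK kinases, was at 1.11 and 1.33 and then 2.89 and 3.43 CPM in parental cells and at 2.34 and 1.97 and then 2.18 and 2.81 CPM in NC cells. It was called in parental cells alone (adjusted p = 0.0078, edgeR), the call was lost without either parental unstimulated library or parental IFN-γ replicate 2 (adjusted p up to 0.0647), and the difference between the experiments did not pass (adjusted p = 0.14).

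Of 20 tested antiviral effectors 8 rose and 2 fell (median 0.21). Uba7, the E1 enzyme of ISG15, went from 1.63 and 1.21 to 5.29 and 6.22 CPM in parental and from 0.223 and 0.197 to 0.815 and 0.792 CPM in NC cells, where the call was lost without any of the 4 parental libraries or either NC IFN-γ library (adjusted p up to 0.236) by edgeR. Ifitm3, which blocks viral entry, rose in parental cells (1.47 ± 0.21) and was at 0.59 ± 0.24 in NC cells (adjusted p = 0.19, edgeR). The 2 that fell, Ifit1 (0 to 0.849 CPM) and Mx1 (1.01 to 2.67 CPM), were low, and both calls were lost without any of the 4 parental libraries, NC unstimulated replicate 2 or either NC IFN-γ library (adjusted p up to 0.141) for Ifit1, and without the same libraries for Mx1 (up to 0.127). DESeq2 gave Ifit1 no adjusted p, and Mx1 did not pass.

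Chemokines did not rise as a group: 0 of 8 tested passed in the 4 against 4 comparison by edgeR or DESeq2, and 2 had an unadjusted p under 0.05 by edgeR. Cxcl10, a T cell attractant, had 0 counts in both unstimulated parental libraries and 0.564 and 0.635 CPM with IFN-γ, at least 3.0-fold higher. In NC cells it was at 0.111 and 0 and then 0.0652 and 0.0273 CPM, at or near the floor of 3 counts. Its parental call was lost without either parental unstimulated library or parental IFN-γ replicate 1 (adjusted p up to 0.113) by edgeR. Cxcl9 lay at 0.519 to 1.21 CPM and Cd274, which encodes PD-L1, at 1.53 to 3.53 CPM, and neither passed in either experiment. Ido1, which degrades tryptophan, went from 12 and 11.9 to 34.1 and 32.7 CPM in parental cells, and was at 14.7 and 14.5 and then 17.2 and 19 CPM in NC cells (adjusted p = 0.064, edgeR).

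**Figure D3:**
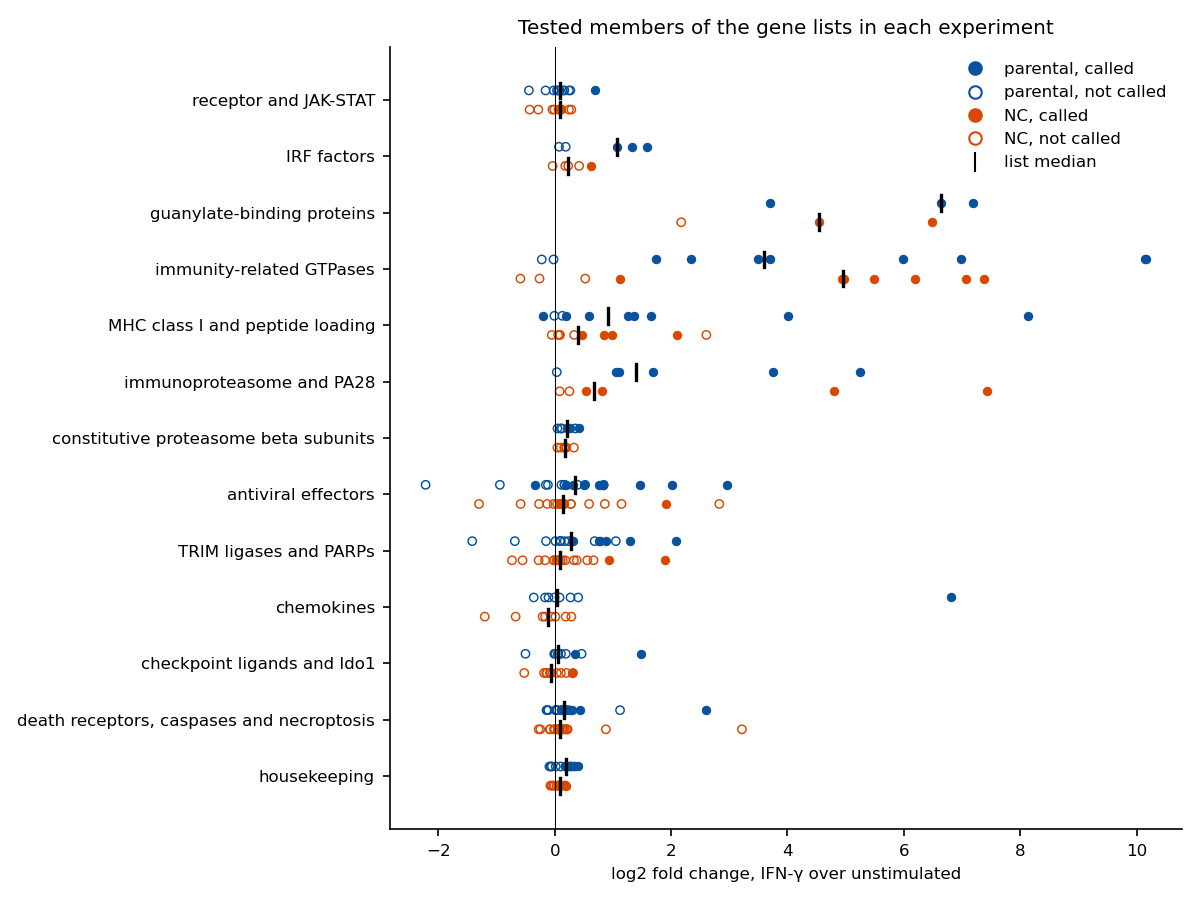
Log2 fold change with IFN-γ (horizontal axis) of each tested member of 13 gene lists (vertical axis), in parental (blue) and NC (orange) cells, with filled points for members past an adjusted p of 0.05 and black bars for list medians. The GTPases reach the largest values, and fitted values of genes at 0 without IFN-γ are no bounds. The housekeeping list has small medians, 0.20 in parental and 0.08 in NC cells, with 7 and 1 of its 14 members called higher.

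Outside the lists, the rule for the largest increases also named Cyp1b1 and Ugt1a6b. Ugt1a6b, a glucuronosyltransferase that shares exons with its neighbours, so that its counts are uncertain, went from 2.03 and 1.53 to 4.37 and 3.94 CPM and from 2.30 and 2.43 to 5.05 and 5.13 CPM. Its calls were lost without parental unstimulated replicate 2 (adjusted p up to 0.0517) in parental and without either NC IFN-γ library (adjusted p up to 0.104) in NC cells. Ly6a, Ly6c1 and Mpeg1 were chosen after their values were seen. Ly6a rose by 0.98 ± 0.13 in parental and 0.92 ± 0.12 in NC cells, Ly6c1 by 0.92 ± 0.10 and 0.74 ± 0.09, and Mpeg1, a perforin-like protein, by 3.52 ± 0.43 and 2.48 ± 0.44, the last lost without either NC IFN-γ library (adjusted p up to 0.173) by edgeR. The largest decreases named by the rule were Gm15807, Gm47036, Gm47476, Gm48841, Olfr1264, A230057D06Rik, Olfr1238, Cd3d, Olfr981 and Gm20098. They had log2 fold changes between -0.99 and -0.82 at levels of at most 7.49 CPM in any of the 8 libraries, and these 10 calls were kept with each library left out.

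Both experiments shared part of their calls. In parental cells 2685 genes were called (18.3%), 1563 higher (10.7%) and 1122 lower (7.67%). In NC cells 310 were called (2.12%), 214 higher (1.46%) and 96 lower (0.656%). Of these, 126 were higher in both, 8.06% of the parental and 58.9% of the NC calls, and 32 were lower in both, 2.85% and 33.3%. Of the genes higher in NC cells, 90.7% had the same sign in parental cells, and of those higher in parental cells, 90.0% had it in NC cells. For the genes called lower these shares were 76.0% and 62.1%. Of all 14637 genes tested, 7356 had a log2 fold change above 0 in parental and 8071 in NC cells. Across all genes tested, the log2 fold changes of the 2 experiments had a Pearson correlation of 0.41. The 126 had a median log2 fold change of 0.30 in parental and 0.29 in NC cells.

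Changes of at least 2-fold were called in parental cells for 47 higher (0.321%) and 67 lower genes (0.458%), and in NC cells for 20 higher (0.137%) and 10 lower genes (0.0683%). Increases of that size in both were called for Gbp2, Gbp3, Ifi47, Igtp, Iigp1, Irgm1, Irgm2, Mpeg1, Parp14, Psmb8, Psmb9, Tap1, Tgtp1, Tgtp2, Uba7 and Ugt1a6b. By edgeR 0 genes were called at least 2-fold lower in both, and 13 had that size with an unadjusted p under 0.05 in both. The NC call of Ifi47 was lost without either parental IFN-γ library or either NC IFN-γ library (adjusted p up to 0.145). The larger parental count does not by itself show a difference, and 2359 genes called in parental cells alone had no called difference between the experiments. The parental count was 1060 and 516 without parental unstimulated replicate 1 and 2, 708 and 698 without parental IFN-γ replicate 1 and 2, and 4413 without either NC unstimulated library. The NC count of 310 was 119 and 116 without parental unstimulated replicate 1 and 2, 108 without either parental IFN-γ library, 2959 and 1564 without NC unstimulated replicate 1 and 2, and 37 and 43 without NC IFN-γ replicate 1 and 2.

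**Figure D4:**
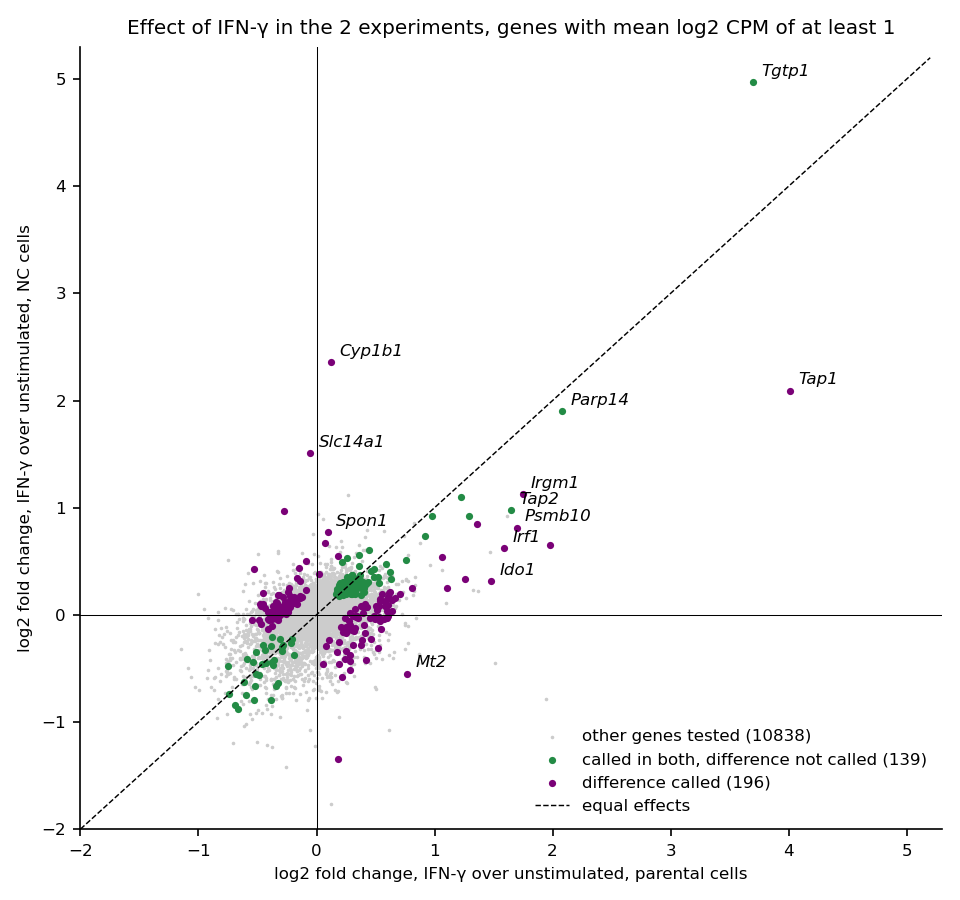
Log2 fold change with IFN-γ in parental (horizontal) and NC cells (vertical) for 11173 genes with a mean log2 CPM of at least 1, with genes called in both in green, genes with a called difference in purple, and a dashed line of equal effects. Tgtp1 and Parp14 lie far from 0 in both, Tap1, Irf1 and Ido1 lie below the line, Cyp1b1 and Slc14a1 lie above it, and 1 gene lies outside the axes.

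The size of the response was tested directly, as the NC effect minus the parental effect. It differed for 196 genes (1.34%), being more positive in NC cells for 108 (0.738%) and more negative for 88 (0.601%) by edgeR. The count was 38 and 26 without parental unstimulated replicate 1 and 2, 22 and 21 without parental IFN-γ replicate 1 and 2, 30 and 22 without NC IFN-γ replicate 1 and 2, and 2362 and 1636 without NC unstimulated replicate 1 and 2. Cyp1b1, Slc14a1, Irf1, Ido1, Psme1, Mt1, Mt2, Ero1l, Pfkp and Slc2a1 kept their call with each of the 8 libraries left out. DESeq2 gave no adjusted p for the difference to Irf1, Ido1, Psme1, Mt2, Tap1, Tapbpl, Psmb10 and Irgm1, among others. Its filter on the mean count left out genes under 1000 counts there. Each of those named had an unadjusted p under 0.05 by DESeq2.

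Irf1 had a difference of -0.97 ± 0.09 on the log2 scale (adjusted p = 0.0006, edgeR), a 3.01-fold rise in parental and a 1.54-fold rise in NC cells. Ido1 (-1.17 ± 0.12) and Psme1 (-0.85 ± 0.11) also had smaller effects in NC cells. Without IFN-γ, Irf1 was at 26.5 and 25.1 CPM in parental and 24.2 and 24.6 CPM in NC cells. Of the genes called higher in both experiments, Irgm1, Psmb10, Psme2, Tap1 and Tapbp also had a called, smaller NC effect. Those 5 calls were each lost on leaving out single libraries. That of Irgm1 was lost without any of the 4 parental libraries or either NC IFN-γ library (adjusted p up to 0.139), of Psmb10 without parental unstimulated replicate 2, either parental IFN-γ library or either NC IFN-γ library (adjusted p up to 0.11), of Psme2 without any of the 4 parental libraries or either NC IFN-γ library (adjusted p up to 0.201), of Tap1 without any of the 4 parental libraries, NC unstimulated replicate 2 or either NC IFN-γ library (adjusted p up to 0.219) and of Tapbp without any of the 4 parental libraries or either NC IFN-γ library (adjusted p up to 0.13), all by edgeR.

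Cyp1b1, a cytochrome P450 that oxidises steroids and is a target of the aryl hydrocarbon receptor, was at 12.4 and 13.7 CPM without and 14.5 and 14 CPM with IFN-γ in parental cells. In NC cells it went from 9.21 and 9.16 to 48 and 46.3 CPM, 5.14-fold. Slc14a1, a urea transporter, was at 62 and 59.1 and then 58.2 and 58.6 CPM in parental cells and went from 177.3 and 164 to 493 and 482 CPM in NC cells. Both were called in NC cells alone, and their difference passed (log2 2.23 ± 0.12 and 1.56 ± 0.07, adjusted p = 4.2e-06 and 1.6e-06, edgeR). Nckap1l (1.24 ± 0.22) and Zrsr1 (0.96 ± 0.18) had positive differences, the first lost without any of the 4 parental libraries or either NC IFN-γ library (adjusted p up to 0.147) and the second without the same libraries (up to 0.233). The 4 against 4 call of Slc14a1 was lost without either NC unstimulated library or NC IFN-γ replicate 1 (adjusted p up to 0.0752), all by edgeR.

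The symbol Nnt stands at 2 identifiers. The one with the largest positive difference (ENSMUSG00000116207.1) was at 25.9 and 41 and then 1.27 and 0 CPM in parental cells and at 24.4 and 14.4 and then 15.1 and 40.3 CPM in NC cells. The other was at 89.6 and 67.0 and then at 116 and 124 CPM in parental cells, so that the split of counts between them is uncertain. The call was lost without parental unstimulated replicate 2 or either parental IFN-γ library (adjusted p up to 0.122) by edgeR.

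**Figure D5:**
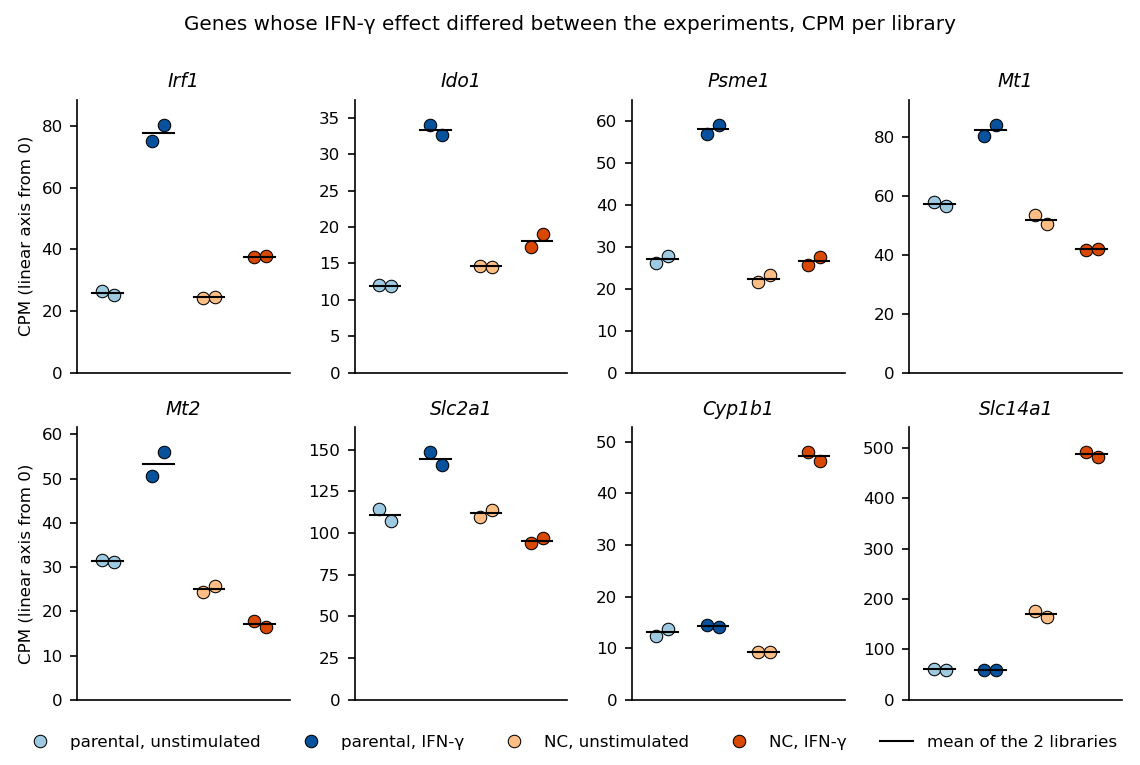
CPM in each of the 8 libraries (vertical axis, linear from 0, a scale per panel) for 8 genes with a called difference between the experiments, with points for libraries and a line at the mean of each pair. Irf1, Ido1 and Psme1 rise more in parental cells, Mt1, Mt2 and Slc2a1 rise in parental and fall in NC cells, and Cyp1b1 and Slc14a1 rise in NC cells.

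In 11 genes the call went in opposite directions. Ahnak and Dnajc10 fell in parental and rose in NC cells, and Bhlhe40, Bnip3, Ciart, Ero1l, Mt1, Mt2, Pfkp, Pgm1 and Slc2a1 rose in parental and fell in NC cells. Apart from Mt2, which the rule named, these genes were chosen after their values were seen. Mt2, a metallothionein that binds zinc and copper, went from 31.6 and 31.1 to 50.6 and 56 CPM in parental and from 24.4 and 25.7 to 17.8 and 16.5 CPM in NC cells. Slc2a1, the glucose transporter GLUT1, went from 114 and 107 to 149 and 141 and from 109.8 and 114 to 93.8 and 96.9 CPM. The groups did not overlap within either experiment for either gene. The NC call of Mt2 was lost without NC IFN-γ replicate 2 (adjusted p up to 0.0946), and that of Slc2a1 without any of the 4 parental libraries or either NC IFN-γ library (adjusted p up to 0.403). On both sides, Bhlhe40, Bnip3, Ciart and Dnajc10 lost a call with some libraries left out, in NC cells without either NC IFN-γ library (adjusted p up to 0.214) for Bhlhe40 and without any of the 4 parental libraries or either NC IFN-γ library (adjusted p up to 0.337) for Dnajc10. On log2(TPM + 1) the parental effect of Bhlhe40, Bnip3, Ciart and Ero1l turned negative.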

How the data were processed

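The 8 libraries were grouped by their titles. Values were deposited by the authors for each gene: estimated (expected) counts, not always whole numbers, and TPM, adjusted for length. The submitters' processing notes name kallisto and mm10, and no version is given in the sources used here. The labels describe poly-A RNA, whereas the methods describe enzymatic removal of ribosomal RNA. Library type, and any sharing of reads between paralogs, could change these estimates. The design had assumed whole counts, so the deposited expected counts were rounded. Positions came from GENCODE M21 on GRCm38.

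Calculations used R 4.3.3 with edgeR 4.0.16, limma 3.58.1 and DESeq2 1.42.0. After filterByExpr on the 4 groups and TMM scaling, edgeR's quasi-likelihood test was applied (experiment plus IFN-γ, or 4 group means for each experiment and their difference), with Benjamini-Hochberg adjustment over all genes and a threshold of 0.05. The pipeline was tested on simulated counts with the same dispersion in all groups. That setting lacks the wider spread of the unstimulated NC pair, so that the test does not vouch for calls that rest on it. Floors are 3 counts per library and cover counting error only. Listed genes were named, plus the 10 largest called increases and decreases without overlap and the 5 largest differences each way, at a mean log2 CPM of at least 1. Some genes covered by this rule or by a list are not reported here. The members and lists were chosen with earlier results of these data known. Alternatives were DESeq2, limma-voom, RLE factors, other filters, Bonferroni adjustment, a fold minimum of 2, the replicate number as a block, all 16 cell libraries, each experiment alone, TPM with a pseudocount of 1 or 0.1, and each library left out.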

Additional observations from a re-analysis of the deposited data

Results flagged for a closer look

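The IFN-γ effect differed between the 2 experiments for 196 genes by edgeR's test of the difference, and those named in the text are given here as the log2 difference, NC minus parental. Among genes of the interferon response it was -1.92 for Tap1, -1.17 for Ido1, -0.97 for Irf1, -0.92 for Tapbpl, -0.88 for Psmb10, -0.85 for Psme1, -0.62 for Irgm1, -0.52 for Psme2, -0.51 for Tapbp, -0.44 for Isg20 and 0.46 for Ifit2. Among genes of glycolysis, hypoxia and metal binding, chosen after their values were seen apart from Mt2, it was -1.32 for Mt2, -0.84 for Mt1, -0.79 for P4ha2, -0.72 for Ddit4, -0.69 for Gys1, -0.66 for Pgm1, -0.66 for Bhlhe40, -0.65 for Ero1l, -0.62 for Slc2a1, -0.58 for Pfkp, -0.52 for Bnip3 and -0.51 for Vegfa. Of the others, of which Ciart, Padi2, Dnajc10, Ahnak and Spon1 were chosen after their values were seen, it was -1.53 for Gm45184, -0.80 for Ciart, 0.36 for Padi2, 0.48 for Dnajc10, 0.51 for Ahnak, 0.68 for Spon1, 0.96 for Zrsr1, 1.24 for Nckap1l, 1.56 for Slc14a1, 2.23 for Cyp1b1 and 6.32 for Nnt. Of these 34 genes, 10 kept the call with each library left out.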

How the results depend on the processing

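The 4 against 4 comparison called 1953 genes, parental cells 2685, NC cells 310 and the difference between the experiments 196. With the replicate number as a block these were 1499, 2706, 477 and 208. Deviations of same-numbered replicates correlated by 0.0463 within the parental and 0.189 within the NC experiment. Between groups of different experiments, these values ran from -0.043 to 0.044. The parental value lay near that range and the NC value above it, and whether the numbers pair the samples was not tested. The difference count was 332 with DESeq2, and the NC count 533 with limma-voom. Without a filter on low counts, NC cells had 845 calls and the difference 678. With all 16 cell libraries, the 4 against 4 count was 3916, NC cells had 719 and the difference 596. Bonferroni adjustment left 42, 87, 23 and 16 genes, and a fold minimum of 2 left 78, 114, 30 and 9. On log2(TPM + 1) the 4 against 4 count was 79, NC cells had 5 and the difference 21. On log2(TPM + 0.1) these were 82, 4 and 11, and on log2(TPM + 1) without a filter 0, 21 and 28, where 4278 genes had an unadjusted p under 0.05 in the 4 against 4 comparison by limma. The mean of both experiments called 3072 genes, the parental libraries alone 4272 and the NC libraries alone 30. With each library left out in turn, the 4 against 4 count ran from 545 to 2550, the parental count from 516 to 4413, the NC count from 37 to 2959 and the difference from 21 to 2362. DESeq2 gave no adjusted p to 53 of the 1953, 214 of the 2685, 2 of the 310 and 29 of the 196 genes, which are not counted as lost. It called 0 genes lower in the receptor and JAK-STAT list and 0 in the antiviral list, where Ifit1 had no adjusted p, and 1 higher in the adhesion list, where Lgals3bp had none. The parental effect turned on log2(TPM + 1), with and without a filter, and on log2(TPM + 0.1) for B2m (-0.00054 and -0.000542), Bhlhe40 (-0.09438 and -0.09812), Bnip3 (-0.04276 and -0.04295), Ciart (-0.02214 and -0.0227), Ero1l (-0.002217 and -0.002223) and Padi2 (-0.01777 and -0.01794), and the cause was not tested. Of the calls among genes named here, 60 of 78 in the 4 against 4 comparison, 47 of 79 in parental cells and 23 of 56 in NC cells kept their call with each library left out. Under every other alternative that gave them a value, 0 of 78, 22 of 79 and 3 of 56 kept it, and 4 of the 34 called differences. The log2(TPM + 1) scale without a filter, which called 0 genes, is one of these alternatives. Depth limits the low genes, since 3 counts are 0.0867 to 0.202 CPM in these libraries.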

Other observations

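Genes of glycolysis and the hypoxia response moved apart in the 2 experiments. Of 33 tested genes in a list chosen after values were seen, 16 were higher and 0 lower in parental cells (median log2 0.25), and 0 were higher and 10 lower in NC cells (-0.16). The difference was called for 18, all more negative in NC cells. Over all genes, 10.7% were called higher in parental cells, 0.656% lower in NC cells and 0.601% more negative in NC cells. The list's median on log2(TPM + 1) was 0.0373 in parental and -0.227 in NC cells. Both tested metallothioneins, Mt1 and Mt2, were higher in parental and lower in NC cells.

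Replication-dependent histone genes, also chosen after values were seen, were higher in 54 of 61 tested genes in parental cells (median 0.58) against 10.7% of all genes, and in 2 in NC cells (0.13), against 1.46% of all genes. The difference was called for 26, against 1.34%. Their transcripts mostly lack poly-A tails, and near-identical copies make counts per gene uncertain. Odorant receptor symbols, of which 377 were tested at low counts, were lower in 43 and higher in 0 genes in the 4 against 4 comparison, against 3.9% and 9.44% of all genes. Their summed level was 811.9 to 836.3 CPM without IFN-γ and 643.6 to 685.0 CPM with it.

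The median summed exon length was 4.12 kb over all genes tested, 3.49 kb for genes called higher and 7.85 kb for genes called lower in parental cells. In NC cells these were 3.78 and 4.01 kb. It was 8.64 kb for genes with a positive and 2.18 kb for genes with a negative difference between the experiments. The part of gene length in these calls was not tested.

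Lists of broad function had small median changes in the 4 against 4 comparison, where 9.44% of all genes were called higher. Oxidative phosphorylation had 20 of 48 genes higher (median 0.16), DNA replication 11 of 33 (0.11), mitosis 6 of 30 (0.03), cholesterol synthesis 5 of 23 (0.10), the TNF and NF-κB early response 6 of 32 (0.12), and the housekeeping genes 5 of 14 (0.11). On log2(TPM + 1), where the median of all genes was -0.0973, these medians were 0.0319, -0.021, -0.103, -0.0583, -0.0131 and -0.0132. In parental cells alone, mitosis had 5 genes higher and 8 lower (median -0.03), against 10.7% and 7.67% of all genes.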
